A study of Mus musculus with 1 sample.

Results

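To describe where the neurotrophin system is expressed in the newborn mouse cortex, 6 genes were examined in the sc-RNA Seq (RNA sequencing of single cells) data of wild-type (WT) cerebral cortex at P0, the day of birth. The genes are the ligands Bdnf and Ntf3, the Trk receptors Ntrk2 and Ntrk3, the p75 receptor Ngfr and the sorting receptor Sort1. They were chosen by name, and all 6 were found among the 51912 gene symbols of the table. The study compared WT mice with mice that express human SERPINA3 from a knock-in allele under Nestin-Cre, and its design text speaks of triplicates. Only the WT library (C57BL/6 strain, P0, cerebral cortex) was used; the knock-in group and further replicates were not analysed here. Since there was 1 library, no difference between groups of mice was tested, no value has a replicate error, and no p-value is given. The labels do not say whether the tissue of several pups was pooled, and the sample's title calls it telencephalic.

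Neurotrophins are secreted growth factors that keep neurons alive and shape the growth of axons, dendrites and synapses. BDNF acts mainly through TrkB (encoded by Ntrk2) and NT-3 (encoded by Ntf3) through TrkC (Ntrk3). The p75 receptor (Ngfr) binds all mature neurotrophins as well as their uncleaved precursors, for which sortilin (Sort1) serves as a partner, and sortilin also routes proBDNF inside the cell. In the brain, TrkB occurs both as a full-length kinase receptor in neurons and as a truncated form that is common in astrocytes.

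The library held 11062 cells and 90346034 unique molecular identifiers (UMIs; each marks 1 captured transcript), with a median of 7196.5 UMIs per cell and a range from 500 to 92061. Cells with at least 2000 UMIs were sorted into gates by how many markers of a cell type they contained, and 7655 cells entered a gate. Gates are named for the type their markers resemble, so that "layer VI" below means layer VI-like, and the interneuron gates are named for genes only. Of 27 further genes known for these types and not used for gating, 25 were higher by any amount in their own gate than in the cells it was compared with. The exceptions were Nrn1 and Gadd45g. The lists were chosen with earlier results of these data known, so that this is not an independent check. The main gates were excitatory neurons (6416 cells), glia and progenitors (673), inhibitory neurons (326) and newborn excitatory neurons (169), while microglia, endothelial, mural and layer VIb gates held 8 to 21 cells each. Levels (CPM) are the summed UMIs of a gene per 1000000 non-mitochondrial UMIs of a gate, and ranges in brackets are exact 95% intervals that cover counting error only. These intervals are too narrow where a few cells hold several UMIs of a gene.

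Bdnf has several alternative first exons that splice to a shared coding exon. RefSeq (GRCm38.p6) lists 7 start windows for Bdnf, each of 300 bases, and 3′ counting adds transcripts from all of them into the same row. The window below lies on the plus strand at chr2:109692186-109692485 of that build and is shown because it alone among the 7 holds the letters CACGTCA, a sequence resembling the cyclic AMP response element (capitals, starting 37 bases before the annotated start). These letters, searched on both strands, occur in 661 of all 32851 windows (2.01%). The full element TGACGTCA (1.79% of windows) and the NR4A-type element AAAGGTCA (1.51%) were found in 0 of the 7. The count table cannot say which of the starts was used.

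Bdnf start window: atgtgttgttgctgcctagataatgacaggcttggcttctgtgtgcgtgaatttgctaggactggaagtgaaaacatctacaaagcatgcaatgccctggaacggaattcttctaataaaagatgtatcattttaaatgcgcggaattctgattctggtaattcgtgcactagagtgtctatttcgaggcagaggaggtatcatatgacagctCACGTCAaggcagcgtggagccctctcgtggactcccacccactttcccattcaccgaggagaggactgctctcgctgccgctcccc

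**Figure D1:**
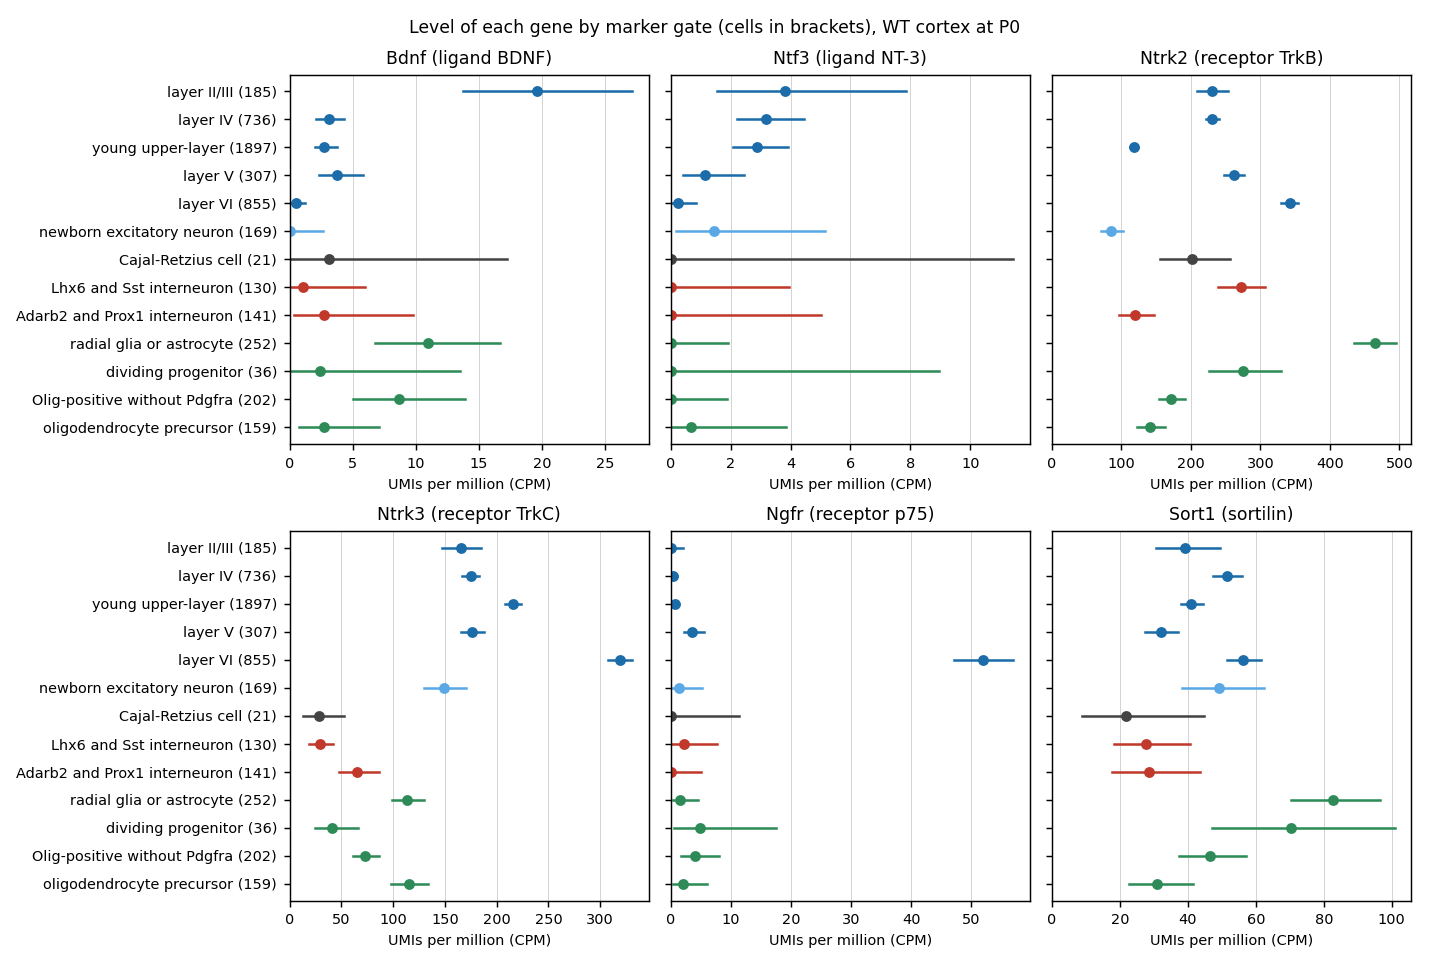
Level of each gene (x axis, CPM) in 13 gates (rows, number of cells in brackets). Points are CPM, lines are exact 95% Poisson intervals for counting error, and blue, red, green and grey mark excitatory, inhibitory, glial or progenitor, and Cajal-Retzius gates; Ngfr stands out in layer VI at 51.9 CPM, Bdnf in layer II/III at 19.6 CPM (18 of 185 cells) and Ntrk2 in the radial glia or astrocyte gate at 464 CPM.

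The first ligand examined was Bdnf. It was rare: 284 UMIs in 202 cells, or 1.83% of the library. Its level was 19.6 CPM (13.7 to 27.1) in layer II/III, 10.9 (6.76 to 16.7) in the radial glia or astrocyte gate and 8.67 (5.05 to 13.9) in cells with Olig1 or Olig2 but without Pdgfra. It was 3.75 (2.29 to 5.79) in layer V, 3.08 (2.12 to 4.32) in layer IV and 2.75 (1.97 to 3.75) in young upper-layer neurons, which are upper-layer cells with at least 3 UMIs of the immature-neuron gene Igfbpl1. Layer VI had 4 UMIs in 855 cells, or 0.464 CPM (0.127 to 1.19), and the newborn excitatory gate had 0 in 169 cells, which allows up to 2.14 CPM. In the order of levels, layer II/III stood above the radial glia or astrocyte gate by 1.79-fold (1.02 to 3.23). The shares of cells with a Bdnf UMI overlapped in their intervals, at 9.73% (5.87 to 14.9) and 6.75% (3.98 to 10.6). The layer II/III level came from 18 of 185 cells, and it was 3.88 CPM in the 135 cells without the gene Nr4a2, described below. The Olig-positive gate stood above layer V by 2.31-fold (1.14 to 4.65). The radial glia or astrocyte gate and the Olig-positive gate were not separated (1.26-fold, 0.633 to 2.54), and no pair of neighbours from layer V downwards was separated.

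Bdnf in glia was then compared with excitatory neurons as a whole. The level was 7.39 CPM in glia and progenitors (44 UMIs) and 3.10 CPM in excitatory neurons (210 UMIs), a ratio of 2.38 (1.68 to 3.31). A UMI of Bdnf was found in 4.75% of glia and progenitors (3.27 to 6.65), in 2.28% of excitatory neurons and in 0.613% of inhibitory neurons (2 of 326 cells), at median depths of 7777, 9266 and 5038.5 UMIs. After each cell had been thinned to 2000 UMIs, the shares were 1.63% (0.819 to 2.91), 0.561% (0.393 to 0.776) and 0 of 326. Tbr1, a transcription factor of excitatory neurons, stood at 18.5% of its excitatory level in glia and progenitors and at 8.97% in inhibitory neurons. Bdnf was above its excitatory level in the glial gate, and the 60 radial glia or astrocytes without a single excitatory marker had 4 UMIs (9.37 CPM, 2.55 to 24.0) against 17 UMIs (11.4 CPM, 6.62 to 18.2) in the other 192. The part of excitatory transcripts in this level was not tested.

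Within the Olig-positive cells without Pdgfra, Bdnf was unevenly spread. A Bdnf UMI was found in 8 of the 58 cells (13 UMIs) with at least 3 of the immediate early genes Fos, Egr1, Arc, Npas4 and Junb, which neurons and glia induce within minutes of stimulation or stress, and in 4 of the other 144 (4 UMIs), a ratio of CPM of 6.56 (2.03 to 27.6). The depth of the cells on each side of this split is not reported here, and the part of depth was not tested. Bdnf was 1.20 CPM (1 UMI) in the 71 dividing cells of this gate and 14.2 CPM in the 131 others. In the radial glia or astrocyte gate no such difference was detectable, since 6.38% of 47 cells with these genes and 6.83% of 205 cells without them had a Bdnf UMI. All 4 UMIs of the oligodendrocyte precursor gate came from a single cell.

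Among upper-layer neurons, Bdnf was concentrated in cells that also held Nr4a2, an orphan nuclear receptor known from layer VIb and the claustrum. Nr4a2 is itself a marker of the layer VIb list, against which upper-layer cells were gated. This split was chosen after the values had been seen, and it is given as a description. Bdnf was 14.5 CPM (11.9 to 17.5) in the 628 upper-layer cells with a Nr4a2 UMI and 1.68 CPM (1.26 to 2.20) in the 3343 without, a ratio of 8.62 (6.17 to 12.2). The share of cells with a Bdnf UMI was 9.87% and 1.41%, or 2.39% and 0.389% after thinning. In layer II/III the levels were 56.3 and 3.88 CPM, in young upper-layer neurons 13.4 and 0.889, and in layer IV 6.92 and 2.10. Cells with Nr4a2 were somewhat deeper (median 10854.5 against 8391 UMIs). Among cells with 8000 to 12000 UMIs the Bdnf levels were 18.7 and 1.87 CPM. The levels in the window of deeper cells are not reported here, and the part of depth was not tested. Of the 109 upper-layer cells with Bdnf, 62 held Nr4a2 (56.9%, against 14.7% of the cells without Bdnf). The same 109 cells were also richer in Fst, which encodes the activin inhibitor follistatin (294 against 54.6 CPM), in Gnb4, a G protein subunit (324 against 72.3), and in Scg2, a granule protein of secretory neurons (193 against 49.1). Excitatory cells of unresolved layer had 4.89 CPM of Bdnf with Nr4a2 and 0.789 without. In layer V, 0 of 31 cells with Nr4a2 (which allows a share of up to 9.68%) and 16 of 276 cells without it (5.80%) had a Bdnf UMI, too few cells to compare.

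Ntf3, the second ligand, had most of its UMIs in excitatory neurons. Of its 199 UMIs, 190 (95.5%) lay in excitatory neurons, which supplied 78.0% of all UMIs. It was 3.81 CPM (1.53 to 7.85) in layer II/III, 3.17 (2.20 to 4.43) in layer IV and 2.89 (2.08 to 3.91) in young upper-layer neurons, and these neighbours were not separated by their intervals. Layer V was at 1.12 (0.413 to 2.45) and layer VI at 0.232 (0.0281 to 0.839). The upper layers together were 5.99-fold (2.95 to 14.2) above the deep layers. Ntf3 was not detected in inhibitory neurons (0 of 326 cells, which allows 1.54 CPM), so that excitatory neurons were at least 1.83-fold higher by that limit, and the exact interval of the ratio starts at 1.47. Glia and progenitors held 1 UMI in 673 cells, a ratio to excitatory neurons of 0.0598 (0.00151 to 0.337), whose interval holds the 0.185 at which Tbr1 stood in the same gate. The smallest gates cannot be compared with the 2.81 CPM of excitatory neurons. The 12 microglia held 1 UMI (10.6 CPM, 0.269 to 59.2), and 0 UMIs in the 17 endothelial cells allow 13.6 CPM.

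Among all 11062 cells, 202 (1.83%) held Bdnf, 116 held Ntf3 and 6 held both, and no separation of the ligands into different cells is read from these counts. In the 75 upper-layer cells with Ntf3, Tshz2, a zinc finger transcription factor, was at 351 CPM against 27.1 in the other upper-layer cells, Cck, the precursor of the neuropeptide cholecystokinin, at 623 against 100 CPM, and Rasgrf2, a Ras exchange factor of upper layers, at 130 against 38.9 CPM. Scg2 was at 6.37 against 56.2 CPM and Fst at 27.9 against 64.9 CPM, the opposite order to that in cells with Bdnf. Ntf3 reached 19.4 CPM (15.6 to 23.7) in the 419 upper-layer cells with a Tshz2 UMI and 1.18 (0.844 to 1.59) in the 3552 without, a ratio of 16.5 (11.3 to 24.4). Among cells of 8000 to 12000 UMIs the levels were 19.6 and 0.698 CPM, and those at 12000 to 20000 UMIs are not reported here. Bdnf was not separated by Tshz2 (2.88 against 4.33 CPM, ratio 0.666, 0.356 to 1.15), whereas Ntf3 was 2.03-fold (1.38 to 2.94) higher with Nr4a2, with intervals that held 1 at 8000 to 12000 and at 12000 to 20000 UMIs. The levels of the second genes ran the other way: Tshz2 was at 113 CPM in upper-layer cells with Bdnf against 34.3 without, and Nr4a2 at 38.2 CPM in those with Ntf3 against 83.3 without. No relation of either ligand to the other's gene is read from these values. In excitatory cells whose layer was unresolved, Ntf3 was 12.8 CPM with a Tshz2 UMI and 1.24 without. These genes were likewise chosen after the values had been seen. Ntf3 was also higher in upper-layer cells with at least 3 immediate early genes (11.1 against 2.92 CPM). These cells had a median of 16227 UMIs against 8640, and within 12000 to 20000 UMIs the ratio was 1.47 (0.565 to 3.26). The window of 8000 to 12000 UMIs is not reported here, nor is Bdnf for this split, and the part of depth was not tested.

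**Figure D2:**
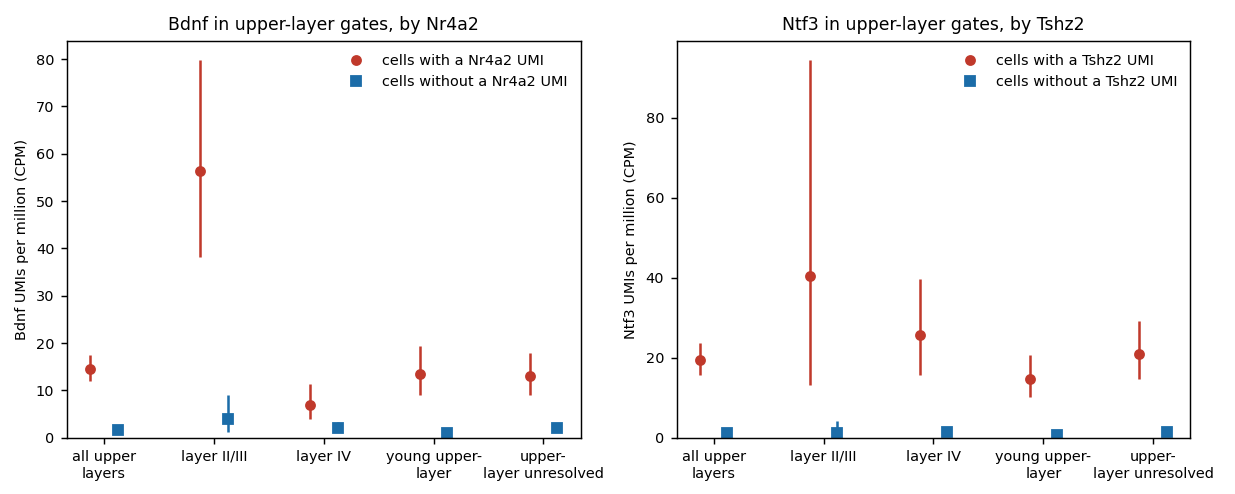
Levels (y axes, CPM) of Bdnf by Nr4a2 (left) and of Ntf3 by Tshz2 (right) in upper-layer gates, with exact 95% Poisson intervals as lines. Red circles are cells with a UMI of the second gene and blue squares cells without; Bdnf was 14.5 against 1.68 CPM and Ntf3 19.4 against 1.18 CPM over all upper layers.

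Ntrk2, which encodes TrkB, was found in every neuronal gate and in every gate of the glia and progenitor group. It was 464 CPM (434 to 496) in the radial glia or astrocyte gate, which stood 1.36-fold (1.26 to 1.46) above layer VI at 342 (330 to 355). Dividing progenitors (274 CPM), the Lhx6 and Sst interneuron gate (271), and layer V (262) followed and were not separated from one neighbour to the next. Layer II/III and layer IV were both at 231 CPM. Olig-positive cells without Pdgfra were at 172 (154 to 191) and oligodendrocyte precursors at 142 (123 to 162). The lowest levels among gates of at least 100 cells were in the Adarb2 and Prox1 interneuron gate at 119 (95.8 to 147), in young upper-layer neurons at 118 (112 to 124) and in newborn excitatory neurons at 85.6 (71.0 to 102). No Ntrk2 UMI was found in the 12 microglia, and 5 in the 17 endothelial cells. The single Ntrk2 row does not separate the kinase receptor from the truncated form, so that no level can be assigned to either form.

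Among excitatory gates, Ntrk2 was lowest in newborn neurons and next lowest in young upper-layer neurons. Young upper-layer neurons stood 1.38-fold (1.14 to 1.67) above newborn neurons, and layer IV stood 1.96-fold (1.84 to 2.08) above young upper-layer neurons. The layer IV gate is set by Rorb and Inhba and was deeper (median 12911.5 against 7022 UMIs). Layer II/III, set apart from the young gate by Igfbpl1 only, stood 1.96-fold (1.75 to 2.18) above it. When upper-layer cells were split by Igfbpl1 alone, Ntrk2 was 129 CPM in cells with at least 6 Igfbpl1 UMIs, 224 with 3 to 5, 236 with 2, and 236 with 0 or 1. The difference lay mainly between the first of these groups and the others. A relation of Ntrk2 to maturity was not tested. Ntrk3 ran the other way over these 4 groups, at 215, 190, 160 and 166 CPM. Cells with less Igfbpl1 were deeper (medians from 7490 to 11822 UMIs). After thinning to 2000 UMIs, Ntrk2 was found in 18.1%, 30.9%, 36.7% and 34.4% of the cells of these groups. The part of depth was not tested.

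Ntrk3, which encodes TrkC, was higher in excitatory neurons (212 CPM) than in glia and progenitors (93.7) or inhibitory neurons. Excitatory neurons held 84.2% of its UMIs and supplied 78.0% of all UMIs. Layer VI was at 319 CPM (307 to 331), 1.48-fold (1.405 to 1.56) above young upper-layer neurons at 216 (208 to 223), which were in turn 1.22-fold (1.14 to 1.32) above layer V at 176 (165 to 188). Layer V, layer IV (175) and layer II/III (165) were not separated. Newborn neurons were at 149 (130 to 171), oligodendrocyte precursors at 115 (98.1 to 134) and the radial glia or astrocyte gate at 113 (98.9 to 130). Inhibitory neurons held 45.0 CPM, a ratio to excitatory neurons of 0.213 (0.171 to 0.263). In the Lhx6 and Sst gate the ratio was 0.136 (0.0899 to 0.199), an interval that overlaps that of Tbr1 there (0.0656, 0.0264 to 0.135). No Ntrk3 UMI was seen in 17 endothelial cells or 12 microglia.

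The balance of the TrkB and TrkC genes thus differed between gates. The Lhx6 and Sst gate was 2.27-fold (1.78 to 2.93) higher than the Adarb2 and Prox1 gate for Ntrk2 and at 0.443 (0.266 to 0.724) of it for Ntrk3. To compare single cells at equal depth, each cell was thinned to 2000 UMIs. Ntrk2 alone was then found in 34.6% of Lhx6 and Sst cells, Ntrk3 alone in 4.62% and both in 2.31%. In the radial glia or astrocyte gate these shares were 40.5%, 7.54% and 13.1%. In young upper-layer neurons they were 10.5%, 28.6% and 6.69%, and in layer VI 25.7%, 24.2% and 23.4%. With all UMIs counted, 84.1% of the 855 layer VI cells held both receptors.

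**Figure D3:**
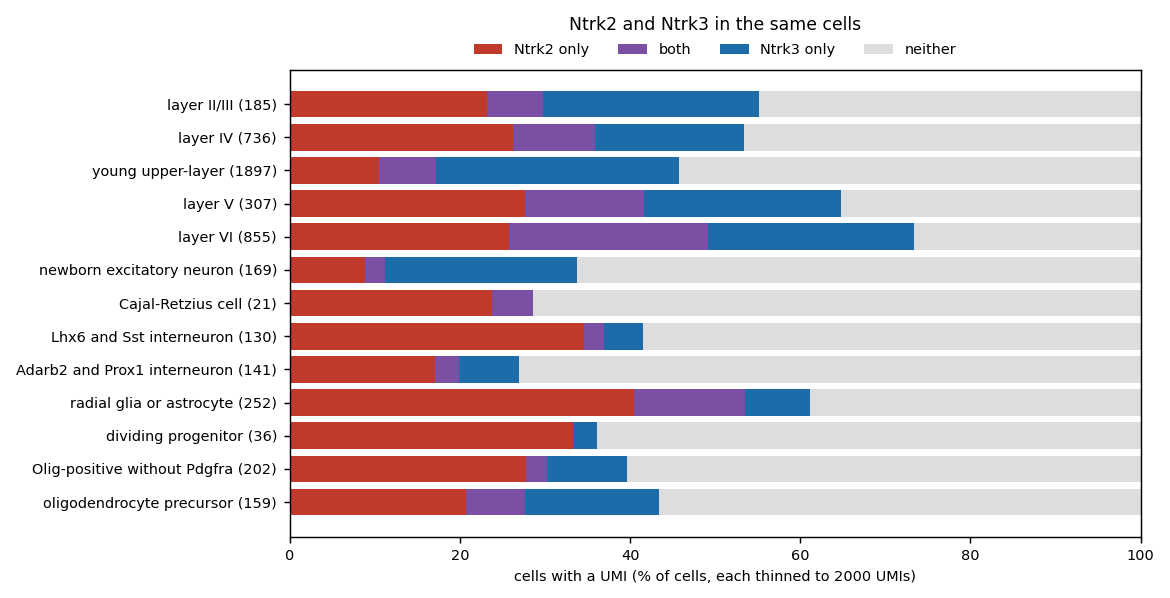
Share of cells (x axis, %) with a UMI of Ntrk2 only, of both, of Ntrk3 only and of neither after thinning each cell to 2000 UMIs, in 13 gates (rows, number of cells in brackets). At this depth neither gene was found in 58.5% of Lhx6 and Sst cells and in 54.2% of young upper-layer neurons; Ntrk2 alone was more frequent than Ntrk3 alone in the former (34.6% against 4.62%) and less frequent in the latter (10.5% against 28.6%), and both occur together in 23.4% of layer VI cells.

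Ngfr, the p75 receptor gene, was a layer VI gene in this library. Of its 658 UMIs, 447 (67.9%) fell into layer VI, which supplied 9.92% of all UMIs. The level there was 51.9 CPM (47.2 to 56.9), 14.6-fold (9.22 to 24.4) above layer V at 3.56 (2.14 to 5.56) and 103-fold (66.0 to 170) above the upper layers at 0.503 (0.307 to 0.777). Layer II/III had 0 UMIs in 185 cells, which allows 1.63 CPM. Layer VIb had 0 UMIs in only 8 cells, which allows 19.8 CPM, so that its level cannot be told. A UMI of Ngfr was found in 32.2% of layer VI cells (29.0 to 35.4; 10.99% after thinning), in 0.478% of upper-layer cells (0.176% after thinning) and in 0.920% of inhibitory neurons (3 of 326; 0.307% after thinning). The interval of the inhibitory share (0.190 to 2.67) holds the upper-layer share, and no expression in the upper layers is read from it. In layer VI, 580 cells had no Ngfr UMI, 169 had 1 and 106 had 2 or more, up to 7.

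Within layer VI, Ngfr went with the corticothalamic transcription factor Foxp2, which is itself a marker of this gate. It was 54.9 CPM in the 771 cells with Foxp2 and 18.5 CPM in the 84 without, a ratio of 2.97 (1.72 to 5.62). Excitatory cells of unresolved layer had 16.8 CPM with Foxp2 and 1.90 without. In contrast, layer VI cells with Tshz2 had 17.9 CPM against 56.1 in those without. Outside excitatory neurons, the Olig-positive cells without Pdgfra had 8 UMIs (4.08 CPM, 1.76 to 8.04) and glia and progenitors together had a ratio to excitatory neurons of 0.310 (0.176 to 0.508), whose interval holds the 0.185 of Tbr1. Of the 275 layer VI cells with Ngfr, 252 also held Ntrk2, 263 held Ntrk3 and 102 held Sort1. Of all 855 layer VI cells, 90.6%, 91.7% and 39.3% held these genes, so that the counts lie near those of the gate as a whole.

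**Figure D4:**
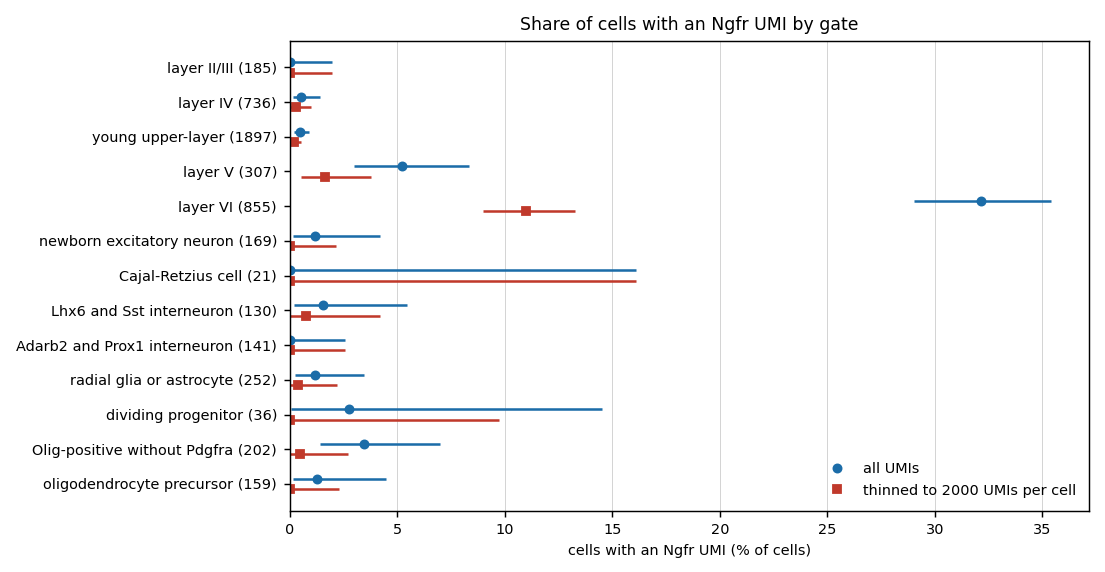
Share of cells with an Ngfr UMI (x axis, %) in 13 gates (rows, number of cells in brackets), with all UMIs (blue circles) and with each cell thinned to 2000 UMIs (red squares), and exact 95% binomial intervals as lines. Layer VI is at 32.2% and 10.99%, and layer V, the next gate by unthinned share, is at 5.21% and 1.63%.

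Sort1, encoding sortilin, ranged less across gates of at least 100 cells than the other 5 genes did. It was 82.7 CPM (70.4 to 96.6) in the radial glia or astrocyte gate, 56.3 (51.4 to 61.6) in layer VI, 51.6 (47.4 to 56.1) in layer IV and 49.2 (38.3 to 62.3) in newborn neurons. Layer II/III was at 39.2 (30.6 to 49.3), layer V at 32.1 (27.4 to 37.2), and oligodendrocyte precursors at 30.9 (22.6 to 41.4). The Adarb2 and Prox1 gate was at 28.5 and the Lhx6 and Sst gate at 27.8. No pair of neighbours in its order of 14 gates was separated by its interval, although the radial glia or astrocyte gate was 1.89-fold (1.60 to 2.21) above excitatory neurons as a whole. Layer VI was 1.76-fold (1.47 to 2.10) above layer V. Sort1 was also detected in endothelial cells (10 UMIs in 17 cells). Ntrk3 and Ngfr had 0 UMIs there, which allows 13.6 CPM for each, too high a limit to tell the level of Ngfr.

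All 6 genes were then set side by side in the 4 broad comparisons. Between glia and progenitors and excitatory neurons, the interval of the ratio lay above 1 for Bdnf, Ntrk2 (1.27, 1.20 to 1.33) and Sort1 (1.30, 1.16 to 1.45), 3 of 6 genes, where 39.1% of 14102 genes tested did so. It lay below 1 for Ntf3, Ntrk3 (0.443, 0.406 to 0.482) and Ngfr, 3 of 6, against 34.7% of all genes. Between deep and upper layers, 4 of 6 lay above 1, against 30.2% of 12898 genes: Ntrk2 (1.75, 1.68 to 1.82), Ntrk3 (1.35, 1.30 to 1.41), Ngfr (65.7, 42.0 to 109) and Sort1 (1.10, 1.005 to 1.20). The ligands Bdnf (0.410, 0.255 to 0.631) and Ntf3 (0.167, 0.0707 to 0.339) lay below 1, 2 of 6 against 27.3% of all genes. The share of members below 1 was near that of all genes. Sort1 for deep over upper layers held 1 with at least 4 markers and with at least 5000 UMIs per cell. After thinning, fewer members lay below 1 in both of these comparisons. Of the 1170 deep-layer cells, 855 were layer VI cells, and layer V alone against the upper layers gave another order. There, Ntrk2 (1.48, 1.39 to 1.56) and Ngfr (7.08, 3.57 to 14.0) were again above 1, but Ntrk3 (0.903, 0.843 to 0.967) and Sort1 (0.741, 0.630 to 0.868) were below 1. Ntf3 was below 1 in layer V as well (0.331, 0.119 to 0.740), while the interval of Bdnf held 1 (0.903, 0.538 to 1.44).

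The ratio of inhibitory neurons as a whole to excitatory neurons was below 1 for every member. The interval lay below 1 for 5 of 6, against 16.6% of 13569 genes, and above 1 for 0 of 6, against 20.3%. With at most 1 marker of another type allowed per cell, a stricter rule against doublets, 3 of 6 lay below 1, as Ntf3 and Sort1 (0.809, 0.540 to 1.16) then held 1. With cells of at least 5000 UMIs, Ntrk2 held 1 (0.925, 0.819 to 1.04). Bdnf was the exception (3 UMIs, ratio 0.495, 0.101 to 1.47), and Ntrk2 was at 0.848 (0.762 to 0.941). Its level differed between the inhibitory subtypes: the Lhx6 and Sst gate was above excitatory neurons (1.24, 1.09 to 1.398) and the Adarb2 and Prox1 gate below them (0.543, 0.435 to 0.670). Newborn excitatory neurons had 4 of 6 below 1, against 18.2% of 13517 genes, and 0 of 6 above 1, against 23.1%. After thinning, 2 of 6 lay below 1, since Bdnf and Ngfr had 0 UMIs in newborn neurons and intervals that held 1. Ntrk2 was at 0.389 (0.323 to 0.466) of the excitatory level and Ntrk3 at 0.705 (0.612 to 0.808). Ntf3 (2 UMIs, 0.508, 0.0611 to 1.86) and Sort1 (1.12, 0.870 to 1.42) were not separated from 1.

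**Figure D5:**
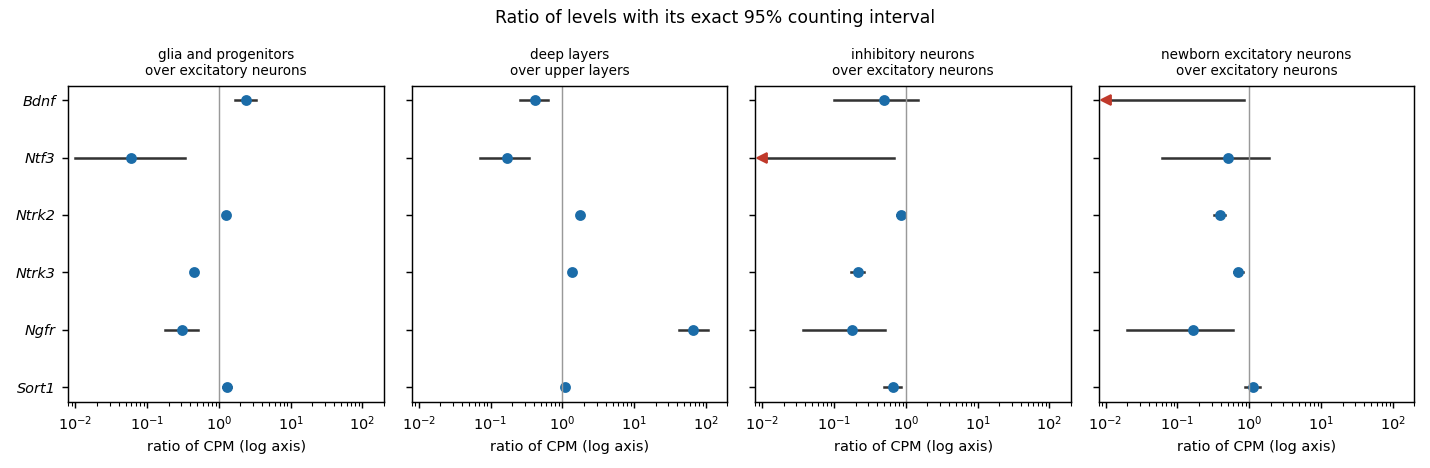
Ratio of CPM (x axes, log scale) of each gene in 4 comparisons, with exact 95% intervals for counting error as lines and 1 as a grey line. Red arrows mark a first group with 0 UMIs; Ngfr lies at 65.7 for deep over upper layers, and no gene lies above 1 with its interval for inhibitory or newborn neurons.

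The other genes of the pathway were read from a list of 41. Ntf5, which encodes the ligand NT-4, was almost absent, with 13 UMIs in the whole library. For the rest, folds were computed with 10 CPM added on both sides, and a gene was counted at 2-fold or more. Of the 36 list genes with at least 100 UMIs in the cells compared, 4 were higher and 4 lower in glia and progenitors than in excitatory neurons, against 10.2% and 7.1% of all genes. Gab1, an adaptor below Trk receptors, was 3.74-fold higher (56.8 against 7.87 CPM) and Plat, the plasminogen activator that starts the cleavage of proBDNF outside cells, 3.04-fold higher (29.7 against 3.06 CPM). Pcsk2, a prohormone convertase, was 4.90-fold lower (16.5 against 120 CPM) and Lingo1, a coreceptor of p75, 4.81-fold lower (23.8 against 153 CPM).

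In deep against upper layers, 2 of 36 list genes were higher and 1 lower, against 1.73% and 1.23% of all genes. Pcsk5, another convertase, was 2.87-fold higher (21.9 against 1.11 CPM), Ndn, which encodes the p75-binding protein necdin, 2.12-fold higher (453 against 208 CPM), and Sorl1 of the sortilin family 2.22-fold lower (15.0 against 45.5 CPM). The next lowest, Gab1, was at 4.18 against 10.1 CPM. In inhibitory against excitatory neurons, 1 was higher and 4 lower (2.7% and 2.51% of all genes). Sorcs3, a sortilin relative, was 4.36-fold higher (51.7 against 4.17 CPM) and Traf6, a p75 signalling partner, was at 26.1 against 13.5 CPM. Lingo1 was 6.69-fold lower and Slitrk5, a TrkB coreceptor, 3.02-fold lower. In newborn against other excitatory neurons, 1 was higher and 1 lower (3.19% and 2.98% of all genes): Sorl1 was 4.48-fold higher (185 against 33.6 CPM) and Pcsk2 2.60-fold lower. Gab1 (22.8 against 7.87 CPM) and Bex1 (129 against 253 CPM) stayed inside 2-fold. The median log2 fold of the list was -0.10, 0.11, 0.07 and -0.18 in these 4 comparisons, beside 0.02, 0.00, 0.02 and 0.02 for all genes. By the same count, Ntrk3 was lower in glia and in inhibitory neurons, Ngfr higher in deep layers and Ntrk2 lower in newborn neurons.

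Last, the genes whose levels ran most like each member were found over the 11 gates with at least 50 cells, leaving out the unresolved gates, among 12608 genes. The measure was Pearson's r of log2(CPM + 10), and it describes these 11 points, which share a library. For Ngfr they were Htr1f (r = 0.957), Nptx1 (0.954), Drd1 (0.928), Nxph3 (0.924) and Gm28928 (0.920), with Htr1f and Drd1 encoding a serotonin and a dopamine receptor. For Ntrk3 they were Wnt7b (0.955), Grk2, Mat2b, Ptk2 and Efl1 (0.900), and for Ntrk2 Fam213a (0.931), Tctex1d2, Mlf2, Ttc4 and Dusp3 (0.879). Sort1 was nearest to Tbc1d10a (0.940), Mafk, the clock genes Arntl and Dbp, and Zc3h14 (0.880). Ntf3 was nearest to Gm44021 (0.982), Cdh12, Gm37814, Gm38085 and Dcun1d5 (0.953), and Bdnf to 1110012L19Rik (0.859), Pdgfc, Angpt1, Gabrg1 and Etv6 (0.816). Both ligands lay near the 10 CPM added, so their patterns span a small range.

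The excitatory cells with all 3 of Scg2, Npy and Fosl2, genes that activity or stress can induce, were also examined (211 cells, median 12341 against 9144 UMIs in the other excitatory cells). Ntrk3 was 120 CPM in them and 216 in the others, a ratio of 0.556 (0.4996 to 0.617), whereas Ntrk2 was 268 and 218 CPM (1.23, 1.14 to 1.32). Ntf3 had 0 UMIs in these cells, which allows 0.986 CPM, against 2.94 CPM (2.54 to 3.39) in the others. Ngfr had 4 UMIs, or 1.31 CPM (0.358 to 3.37), against 9.002 CPM (8.29 to 9.76). The layers of the 211 cells are not reported here, and the part of layer in the Ntf3 and Ngfr values was not tested. Within the upper layers the ratios were 0.585 (0.498 to 0.684) for Ntrk3 and 1.55 (1.397 to 1.72) for Ntrk2. Bdnf and Sort1 are not reported here for this split. Among upper-layer cells, a Scg2 UMI was found in 60.6% of those with Bdnf and in 15.3% of those without (median 12409 and 8690 UMIs). For Ntf3 these shares were 5.33% and 16.7% (median 15536 and 8712.5 UMIs). Whether the state of these cells moved the ligand or receptor levels was not tested.

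Cells left out of the gates were checked as well. The 2615 cells under 2000 UMIs had a median of 18.9% mitochondrial UMIs, against 3.21% in gated cells, and held 3 of the 284 Bdnf UMIs. Their Ntrk2 (302 CPM) and Ntrk3 (334 CPM) levels were above those of all gated cells (220 and 195 CPM). The 792 cells above this limit that matched no gate or more than 1 had 176 and 151 CPM.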

How the data were processed

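Cortex of P0 WT mice was dissociated with papain and sequenced with the 10x 3′ method (v3.1 kit) by the authors. The deposited values are raw UMI counts per gene and cell, with no normalization. The deposited cell table, which gives the count of UMIs and of detected genes per cell, matched the sums in all 11062 cells. Per the submitters' processing notes, STAR, Cell Ranger and Seurat were used with the mm9 build. The count table holds no coordinates, and the start window is given in RefSeq's GRCm38.p6 build.

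Cells with at least 2000 non-mitochondrial UMIs (37 mitochondrial genes left out) were gated. A first-level gate needed at least 3 markers of its list and a margin of 2 over every other of 9 lists. Newborn excitatory neurons needed Eomes and were not set against the excitatory list. Excitatory neurons were likewise not set against the newborn list, so that cells with newborn markers but no Eomes UMI could enter the excitatory gate. Layers needed at least 3 markers and a margin of 1, and inhibitory subtypes at least 2 markers and a margin of 1. Upper-layer cells with both Rorb and Inhba were called layer IV, and those with neither were called young (Igfbpl1 at 3 UMIs or more) or layer II/III (at most 1). Glia and progenitors with Pdgfra and an Olig1 or Olig2 UMI were called oligodendrocyte precursors, and those without Pdgfra were called Olig-positive at 2 or more Olig1 and Olig2 UMIs. The rest without Pdgfra were called dividing progenitors (at least 3 of 6 dividing markers) or radial glia or astrocytes (at most 1). No doublet caller was run: cells with markers of more than 1 type stayed ungated, with a stricter rule as an alternative. The members, gates and lists were chosen with earlier results of these data known.

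CPM carried exact Poisson intervals, shares exact binomial (Clopper-Pearson) intervals, and ratios exact conditional binomial intervals, all at 95%. A count of 0 was read as allowing 3. Thinning drew 2000 UMIs per cell without replacement (seed 1). Named were the 6 members, the list gene Ntf5, the 2 list genes with the largest fold each way per comparison, and the 5 genes most like each member, among genes with at least 200 UMIs. Some further genes of the list are not reported here. Genes used to split upper-layer cells (Nr4a2, Tshz2) or set beside the ligands (Cck, Rasgrf2, Fst, Gnb4) were chosen after values were seen. Scg2 was set beside the ligands as well. Further splits used Foxp2, the immediate early genes, the dividing markers, and Scg2, Npy and Fosl2 together. Python 3.11.15, NumPy 2.4.6 and SciPy 1.17.1 were used. The intervals and folds were tested on simulated Poisson counts, which cannot show the effect of UMIs clustered in a few cells. Thinning was checked on the real counts of the members against the number expected.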

Additional observations from a re-analysis of the deposited data

How the results depend on the processing

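Each of the 4 counts of members was recomputed under 8 alternatives: at least 2 or 4 markers, at least 1000 or 5000 UMIs per cell, at most 1 marker of another list, at most 20000 UMIs, mitochondrial genes in the denominator, and cells thinned to 2000 UMIs. The number of members above 1 was 3 under all 8 for glia and progenitors and ranged from 3 to 4 for deep over upper layers. The number below 1 ranged from 3 to 5 for inhibitory neurons (3 under the stricter rule against doublets, 5 as reported) and from 2 to 4 for newborn neurons (2 after thinning, 4 as reported). After thinning it was 2 for glia and progenitors (3 as reported) and 1 for deep over upper layers (2 as reported). Of the 192 ratios recomputed for single genes, 179 kept their call. These either kept their direction and side of the interval, or had an interval that held 1 as reported and still held 1. A further 13 kept their direction but had an interval holding 1. Of the ratios with a reported interval clear of 1, 0 turned. The direction of ratios whose reported interval held 1 was not checked. Sort1 for deep over upper layers held 1 with at least 4 markers (1.05, 0.949 to 1.17) and with at least 5000 UMIs (1.07, 0.977 to 1.18). Ntrk2 for inhibitory over excitatory neurons held 1 at 5000 UMIs (0.925, 0.819 to 1.04), and Sort1 there held 1 under the stricter rule against doublets (0.809, 0.540 to 1.16). The others concern Bdnf, Ntf3 and Ngfr at 0 or 1 UMIs after thinning or in smaller gates. Thinning lowered 53 of 66 shares of cells with a UMI beyond their intervals, as fewer UMIs per cell were drawn. No paired analysis was possible because a single library was at hand. Depth limits the ligands most, with 284 UMIs of Bdnf and 199 of Ntf3 in all.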
